A study of Mus musculus with 4 samples.

Results

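Gene expression in cells sorted as splenic marginal zone macrophages was compared between 1 array from BXD2-Ifnar-/- mice injected with PBS (the knockout) and 1 array from BXD2 mice injected with sLTβR-Fc (the decoy). BXD2 is a recombinant inbred mouse strain that develops lupus-like autoimmunity, the Ifnar-/- allele removes the receptor for type I interferon, and sLTβR-Fc is a soluble decoy of the lymphotoxin β receptor fused to an antibody Fc part. The submitters describe these macrophages as defective in BXD2, as normal again without the interferon receptor, and as further impaired after the decoy, so the comparison sets the arrays at the ends of that range against each other. All 34885 probes with 1 gene symbol, of 45281 on the array, were eligible, and of their 19057 genes 14735 with a signal above background on at least 1 of the 4 arrays were compared.

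A further pair of arrays, from BXD2 mice injected with PBS (the controls), served as a scale of the spread between arrays of 1 group. Each array held cells of 2 mice aged 2.5 months, pooled, with the decoy given at 25 µg intravenously and all spleens taken 10 hours after injection. The arrays compared differ in both genotype and injection, and no array of a control Fc protein was analysed here, so blockade of lymphotoxin cannot be told apart from the injection of a protein. Per the labels, the cells had low CD11b, lacked F4/80 and I-Ab and carried SIGN-R1. Neither of the arrays compared has a replicate, so differences are given by size, as log2 of Ifnar-/- over sLTβR-Fc, and 2-fold is used as the threshold.

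Type I interferons signal through the Ifnar1 and Ifnar2 chains to Janus kinases and STAT factors, which switch on antiviral genes whose promoters often carry an interferon-stimulated response element. Lymphotoxin made by B cells and other lymphocytes signals through its receptor to the RelB branch of NF-κB, and this pathway is known for maintaining the marginal zone and its macrophages. Marginal zone macrophages lie at the border of white and red pulp, carry SIGN-R1 and Marco, and take up blood-borne particles and apoptotic cells.

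The genes of the sort gate were examined first. Cd209b, which encodes SIGN-R1, read 127 and 130.1 normalised intensity units in the controls, 152 in the knockout and 145 after the decoy, against a floor of 111 that stands for background. Of its 3 probes, 1 was above background on all 4 arrays, 1 on 2 arrays and 1 on 1 array. Marco read 252 and 162 in the controls, 181 in the knockout and 168 after the decoy. Cd209b was therefore dim on every array. Marco was above background on all 4 arrays and brightest in the first control. Siglec1, a sialic acid-binding receptor of neighbouring metallophilic macrophages, was above background on 0 of 4. Itgam, the CD11b gene, lay between 111 and 118 throughout, while the gene of an I-A chain that the gate excluded, H2-Ab1, read 8662 and 8305 in the controls, 16289 in the knockout and 9488 after the decoy. Adgre1, the F4/80 gene, read 629 and 306 in the controls, 1017 in the knockout and 631 after the decoy. Between 23881 and 24319 probes were above background per array, and the deposited values had upper quartiles of 188 and 179 in the controls, 156 in the knockout and 146 after the decoy.

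Across all genes, 104 were at least 2-fold higher on the Ifnar-/- array than on the sLTβR-Fc array (0.706% of those compared) and 228 were at least 2-fold lower (1.55%), 332 in all (2.25%). The control pair gave 31 such genes (0.21%). Counts of 2-fold members in the gene lists below are to be set against the shares of 0.706% higher and 1.55% lower over all genes. Of the 332 genes, 103 of the higher and 226 of the lower were further apart than the controls were on the same probe. Because only 0.21% of genes had a 2-fold gap between the controls, the 2-fold threshold nearly fixed these counts in advance. At 4-fold, 10 genes were higher and 36 lower. On 9 of the 104 genes the sLTβR-Fc array, and on 3 of the 228 the Ifnar-/- array, was not above background, so these have only a bound. The split depended on scaling: with the values as deposited, 334 genes were higher and 120 lower, and the 3684 brightest genes had a median difference of 0.38 there against 0.03 after quantile normalisation. Of the 332 genes, 102 higher and 109 lower ones kept their 2-fold difference under all 4 scalings. Just inside the threshold lay Klrk1 at 1.003 and Adgrl4 at -1.004, and just outside it Bcl2a1b at 0.998 and Fosb at -0.9995.

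**Figure D1:**
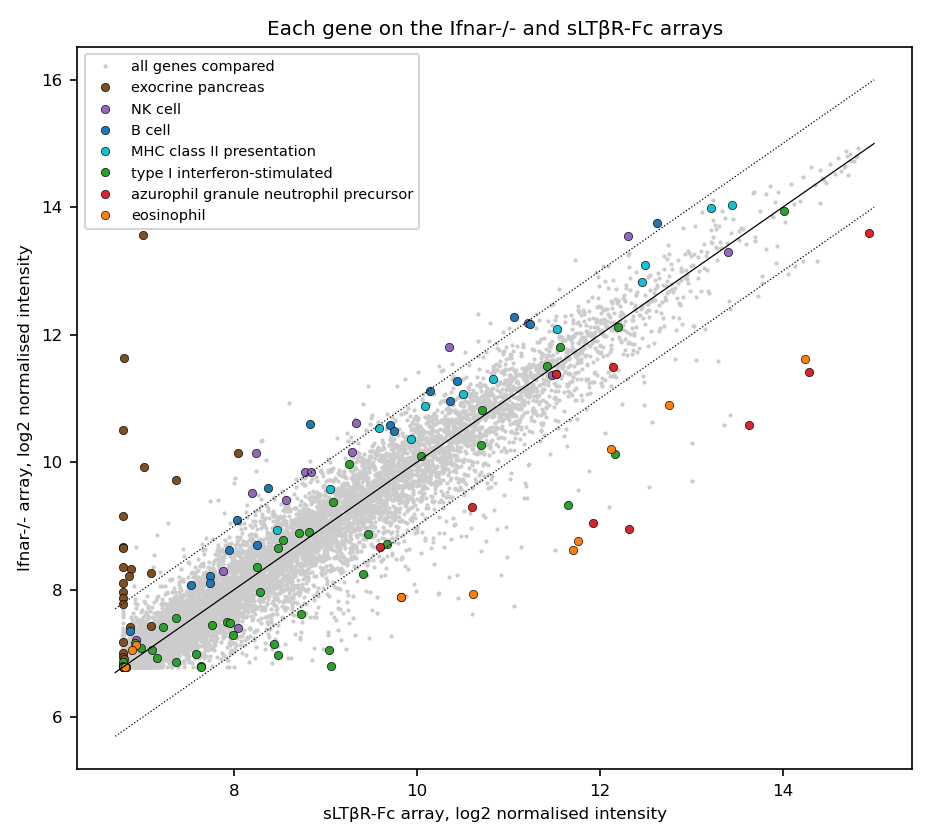
Each point is 1 of the 14735 genes, with log2 normalised intensity on the sLTβR-Fc array on the horizontal axis and on the Ifnar-/- array on the vertical axis. Colours mark gene lists and dotted lines mark 2-fold, with 104 genes above the upper line and 228 below the lower one.

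Each 2-fold difference was sorted by where the mean of the controls lay between the arrays compared. An array was counted as standing apart if that mean lay within 0.333 of the log2 distance from the other array, or beyond it. This sorting was done after quantile normalisation only and took no account of the gap between the controls, so it describes positions. Among the 104 higher genes, the Ifnar-/- array stood apart from controls and decoy in 49, the sLTβR-Fc array stood apart in 20, and the controls lay in the middle range between the arrays in 35. Among the 228 lower genes, the sLTβR-Fc array stood apart in 112, the Ifnar-/- array in 55, and 61 had the controls in the middle range.

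A subset of interferon-stimulated genes read lower in the knockout. Of 61 listed genes, 46 were measured, and 8 of them were at least 2-fold lower on the Ifnar-/- array while 0 were higher, with a list median of -0.06 (-0.002 with the values as deposited). The median over all genes was 0, and the control pair differed by a median of 0.17 on this list. Ifi27l2a, a mitochondrial interferon-induced protein, read 2433 and 3119 in the controls, 646 in the knockout and 3224 after the decoy, a difference of -2.32. Ifi27 read 5719 and 6621, then 1123 and 4586, and differed by -2.03, with a further probe at -2.23. In both genes the Ifnar-/- array was the lowest. The decoy array lay just above the controls for Ifi27l2a and below both for Ifi27.

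The same arrangement was seen for further interferon-stimulated genes. Usp18, which removes the ubiquitin-like ISG15 tag, read 352 and 598 in the controls, 126 in the knockout and 356 after the decoy (-1.50). Ifit3, an interferon-induced protein, read 346 and 567, then 141 and 348 (-1.30). Eif2ak2, the double-stranded RNA-activated kinase PKR, read 723 and 738, then 305 and 681 (-1.16). For Usp18, Ifit3 and Eif2ak2, the Ifnar-/- array lay below every other array. Cmpk2, a nucleotide kinase, read 681 and 617 in the controls, 196 in the knockout and 425 after the decoy (-1.12), so here too the decoy array lay below both controls. Oas1g and Oasl2, which belong to the oligoadenylate synthetase family, differed by -2.25 and -1.98, but their further probes differed by only -0.09 and -0.03.

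Other interferon-stimulated genes showed little or no difference, and the list was mixed. Isg15, which encodes the ubiquitin-like tag, read 169 and 152 in the controls, 122 in the knockout and 143 after the decoy (-0.23), and Mx1 was at background on both arrays compared. The highest member was Dtx3l, a ubiquitin ligase, which read 1185 and 1112, then 1001 and 614 (0.70). In all, 26 members lay below 0 and 17 above it, with 3 at 0, whereas 6669 of all genes (45.3%) lay above 0. Against the controls, the list median was -0.39 for the Ifnar-/- array and -0.06 for the sLTβR-Fc array. Of the 8 lower members, 5 kept a 2-fold difference under all 4 scalings.

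**Figure D2:**
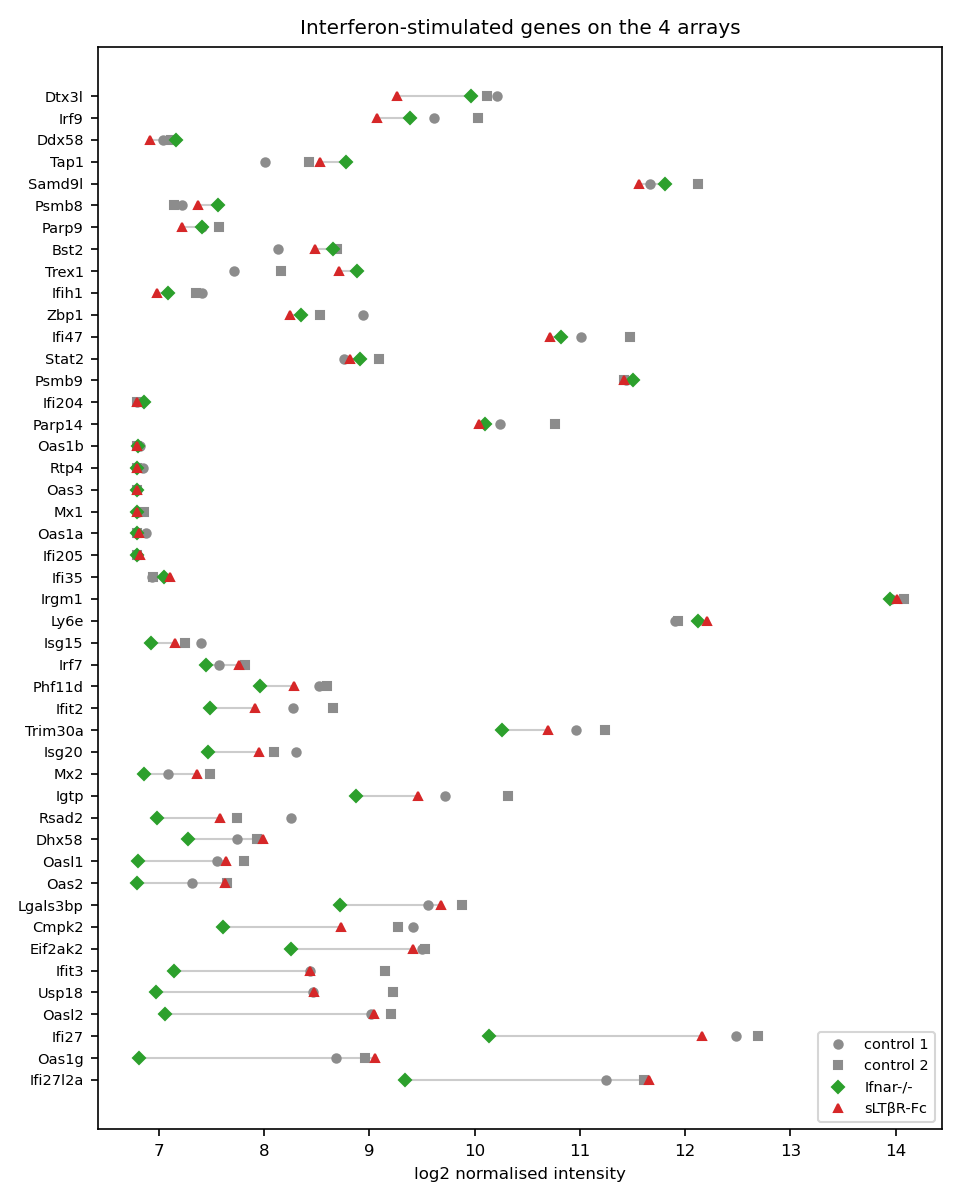
Log2 normalised intensity (horizontal axis) of the 46 measured interferon-stimulated genes on the 4 arrays, with 1 point per array. Ifi27l2a, Ifi27, Usp18 and Ifit3 show the Ifnar-/- point below the other 3, while many members have overlapping points.

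Promoter windows of 4 interferon-stimulated genes are printed because the genes carry the same response element. They differ in how far apart the arrays were on the brightest probe. Isg15 and Oas1a were chosen after their values had been seen. Sequences are from RefSeq on GRCm38.p6, 5′ to 3′ on the strand of the gene, and capitals mark matches to the interferon-stimulated response element (GAAA, any 2 bases, GAAA) or its reverse complement, where overlapping matches run together.
Ifit3: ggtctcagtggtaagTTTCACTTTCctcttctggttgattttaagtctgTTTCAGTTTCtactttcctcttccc
Oas1g: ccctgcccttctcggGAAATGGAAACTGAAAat
Oas1a: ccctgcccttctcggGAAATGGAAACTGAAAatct
Isg15: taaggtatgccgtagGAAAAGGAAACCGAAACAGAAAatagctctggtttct
The Ifit3 window lies at chr19:34583358-34583431 on the plus strand and holds 2 matches. The windows of Oas1g (chr5:120887614-120887646), Oas1a (chr5:120907526-120907560) and Isg15 (chr4:156200860-156200911) lie on the minus strand, with 2, 2 and 3 overlapping matches. The element and its flank are the same in Oas1g and Oas1a, while the level of Oas1a stayed between 111 and 118 on the 4 arrays. So close to the floor of 111, Oas1a had little room to fall. Oas1g differed by -2.25 on its brightest probe but by a median of -0.09 on its further probes, so the 2 genes cannot be ranked by response. Of the measured interferon-stimulated genes, 32 had a promoter in the table, and 15 of these (46.9%) held a match on either strand between 250 bases before and 50 after the start. The share was 3.99% of all 27025 genes with a promoter, 3.85% of the genes compared, 3 of 5 among the 2-fold lower interferon-stimulated genes, 7.14% among the genes 2-fold higher on the Ifnar-/- array and 3.89% among those lower. A match describes the letters of the window and shows no binding.

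The receptors and ligands of the pathways differed less than 2-fold. Ifnar1 read 157 and 149 in the controls, 191 in the knockout and 117 after the decoy (0.70), and the sources used here do not place its probe against the deleted part, so the value does not check the genotype. Ifnar2 read 309 and 351, then 248 and 235 (0.08). Ltbr, the receptor that the decoy copies, was at the floor on both controls and read 128 on each of the arrays compared (0.00). Its ligand genes Lta, Ltb and Tnfsf14 differed by 0.48, 0.38 and 0.46.

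Among 22 measured genes of lymphotoxin β receptor and NF-κB signalling, 0 were 2-fold apart in either direction and 16 lay above 0, with a median of 0.24 (0.49 to 0.61 under the other scalings). Relb, the NF-κB subunit of the lymphotoxin branch, read 261 and 320.0 in the controls, 558 in the knockout and 324 after the decoy (0.78). Traf2, a signal adaptor, was above background on the Ifnar-/- array only among the arrays compared and was at least 1.96-fold higher there. For Relb the Ifnar-/- array was high and the decoy array lay close to the higher control. Genes of interferon receptors and JAK-STAT signalling had a median of 0.25 (0.52 to 0.65 under the other scalings), with 18 of 22 above 0 and 0 at 2-fold.

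Of 20 listed genes of marginal zone macrophages, 14 were measured, 6 above and 8 below 0, with a median of -0.03 that turned to 0.004 under scaling to a common median. Cd209d, a lectin of the SIGN-R1 family, read 216 and 306 in the controls, 1304 in the knockout and 315 after the decoy, 4.13-fold apart. Cd209e, a further lectin of that family, read 118 and 121, then 325 and 119 (1.45), and Cd209a, which was not above background after the decoy, was at least 1.61-fold higher. In Cd209d and Cd209e the Ifnar-/- array alone was high. All 5 measured Cd209 genes lay above 0, from 0.06 for Cd209b to 2.05 for Cd209d, under quantile normalisation. Axl, a receptor for apoptotic cells, read 1016 and 436 in the controls, 238 in the knockout and 485 after the decoy (-1.03), with a further probe at -0.07 and controls further apart than the arrays compared. Scarf1, a scavenger receptor, differed by -0.88. The 23 measured genes of apoptotic cell clearance had a median of -0.004 (0.03 with the values as deposited), and Stab1, a receptor for phosphatidylserine, was the one furthest from 0 (488 and 361 on the controls, then 240.0 and 943, -1.97), with its further probes at a median of -0.54.

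Genes of MHC class II presentation read higher on the Ifnar-/- array, each by less than 2-fold. All 12 measured members lay above 0, with a median of 0.56 against a control gap of -0.09, and they did so under each of the 4 scalings, with medians of 0.72 to 0.85 under the others. The class I genes differed less, with 11 of 16 above 0 and a median of 0.11 (0.29 to 0.41 under the other scalings), and B2m, the class I light chain, at -0.31. H2-DMb1, part of the peptide-loading complex, read 734 and 582 in the controls, 1491 in the knockout and 766 after the decoy (0.96). H2-Ob, a modulator of loading, differed by 0.79, and H2-Ab1 by 0.78 with its further probes at a median of 0.32. Cd74, the invariant chain, read 4893 and 4958, then 7283 and 5622 (0.37). In H2-DMb1 and H2-Ab1 the Ifnar-/- array was high and the decoy array lay near or slightly above the controls.

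Markers of other cell types that carry MHC class II moved the same way. Of 18 measured B cell genes, 17 lay above 0, 5 of them at 2-fold, and the median was 0.79 (1.07 to 1.20 under the other scalings). Their summed intensity was 26933 and 26176 in the controls, 37816 in the knockout and 18831 after the decoy. Cd79b, a chain of the B cell receptor complex, read 9386 and 9488 in the controls, 13760 in the knockout and 6305 after the decoy (1.13, further probe 0.97). Blk, a B cell kinase, read 3181 and 2828, then 4958 and 2143 (1.21, further probe 1.52), while Cr2, the complement receptor of marginal zone B cells, differed by 1.77 with a further probe at only 0.13. In Cd79b and Blk the controls lay between the arrays compared. Pax5, a defining factor of B cells, was at or near the floor on every array. The 23 measured dendritic cell genes summed to 27985 and 26107 in the controls, 36288 in the knockout and 25563 after the decoy, with 22 above 0, 2 at 2-fold and a median of 0.49 (0.64 to 0.77 under the other scalings). Ly6d, found on plasmacytoid dendritic and B lineage cells, read 904 and 871, then 2351 and 879 (1.42, further probe 1.02). In bulk RNA of sorted cells, fewer cells of a type and less RNA per cell cannot be told apart, and the part of B and dendritic cells in the class II difference was not tested.

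Most natural killer cell genes read higher in the knockout. Of 16 measured genes, 12 lay above 0 and 7 at 2-fold, with a median of 0.93 and a median gap of 0.42 between the controls. Their summed intensity was 30196 and 35956 in the controls, 43371 in the knockout and 29101 after the decoy. Ncr1, the receptor NKp46, read 285 and 349.6 in the controls, 733 in the knockout and 294 after the decoy (1.32). Eomes, a transcription factor of these cells, read 1395 and 1968, then 1573 and 644 (1.29, further probe 0.91), so here the decoy array was the low one. The Ly49 receptor Klra3 read 810 and 1693, then 2342 and 706 (1.73, further probe 1.79), with controls more than 2-fold apart. Klra10 and Klra9 differed by 1.70 and 1.66, and Ccl5, a chemokine of cytotoxic lymphocytes, by 1.25. Prf1, the pore-forming perforin, differed by -0.10 but by 1.21 on its further probe. Nkg7, a protein of cytotoxic granules, read 867 and 1403, then 2678 and 2931 (-0.13), so both arrays lay above both controls.

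Genes of the exocrine pancreas, an organ that lies beside the spleen, showed some of the greatest differences. Of 30 listed genes, 23 were above background on at least 1 array and all 23 were higher on the Ifnar-/- array, 16 of them by 2-fold, but 12 of the 23 were not above background on the sLTβR-Fc array, and a gene kept through 1 array alone had to differ. Amy2a5, a pancreatic amylase, read 2513 and 6416 in the controls, 12153 in the knockout and 129 after the decoy (6.56), with a further probe at 1.17. Cela2a, an elastase, read 337 and 995, then 3179 and 111 (4.84). Prss2, a trypsinogen, read 230.1 and 284, then 973 and 129 (2.91). In these genes the 4 arrays stood in the same order, with the decoy array lowest, the controls next and the Ifnar-/- array highest, and the controls were 1.56 apart on the log2 scale for Cela2a. Pnliprp1, a lipase-related protein, was at least 13.05-fold and Cpa1, a carboxypeptidase, at least 5.14-fold higher. The summed intensity of the list was 6309 and 11757 in the controls, 24198 in the knockout and 2856 after the decoy.

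Granulocyte genes supplied most of the genes with the lowest differences, although 223 of the 332 2-fold genes in either direction stood on no list. Of 10 measured genes on the list of azurophil granules, which neutrophil precursors make, all 10 were lower on the Ifnar-/- array. Of them, 7 were at 2-fold, with a list median of -1.64 and a control gap of -0.39. The list also holds genes with other roles, among them Nkg7 (-0.13) and the transcription factor Cebpe. Under each of the other scalings, 1 of the 10 lay above 0. Elane, neutrophil elastase, read 1039 and 771 in the controls, 493 in the knockout and 5095 after the decoy (-3.37). Prtn3, proteinase 3, read 3985 and 2980, then 1541 and 12678 (-3.04), and Ctsg, cathepsin G, 8764 and 6632, then 2732 and 19944 (-2.87). Mpo, myeloperoxidase, read 25201 and 19311, then 12438 and 31594 (-1.34, further probes at a median of -1.91). In Elane, Prtn3 and Ctsg the decoy array was at least 2-fold above both controls and the Ifnar-/- array below both.

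Secondary granule genes, made later in the neutrophil series, also mostly read lower on the Ifnar-/- array. Of 14 measured genes, 13 lay below 0 and 7 at 2-fold, with a median of -0.75 (-0.46 to -0.60 under the other scalings). The list median against the controls was 0.01 for the sLTβR-Fc array and -0.37 for the Ifnar-/- array. The controls themselves differed by a median of -0.47 on this list, which is larger in size than either value. Camp, the cathelicidin peptide, read 2641 and 1324 in the controls, 197 in the knockout and 1555 after the decoy (-2.98). Ltf, lactoferrin, read 2811 and 1617, then 215 and 2138 (-3.32), but its further probe differed by -0.81. Of the mature neutrophil genes, S100a8 and S100a9, the calprotectin subunits, read 782 and 1528 on the Ifnar-/- array against 5939 and 10518 on the sLTβR-Fc array (-2.93 and -2.78), with controls at 3877 and 2510 and at 10078 and 5648. For Camp the decoy array lay within the range of the controls, for S100a9 just above it and for S100a8 above both, while the Ifnar-/- array was below both in all 3. Retnlg, a resistin-like protein of mature neutrophils, went the other way and read 299.8 and 268, then 1286 and 315 (2.03). Mature neutrophil genes had 6 of 16 measured members 2-fold lower and 1 higher, and all the secondary granule genes together summed to 10114 and 5923 in the controls, 2677 in the knockout and 10208 after the decoy.

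Eosinophil, mast cell and basophil genes were also among those lower in the knockout than after the decoy. Of 10 measured eosinophil genes, 7 were 2-fold lower, with a median of -1.92 and a control gap of 0.04, and the sum was 8950 and 9850 in the controls, 7916 in the knockout and 40444 after the decoy. Epx, eosinophil peroxidase, read 426 and 549.8, then 436 and 3473 (-2.99), and the eosinophil ribonuclease Ear6 read 380.0 and 422, then 395 and 3335, 8.45-fold apart. Prg2, major basic protein, read 3917 and 4419, then 3132 and 19445 (-2.63). In all 3 the Ifnar-/- array lay near or slightly below the controls and the decoy array was high. Siglecf, a surface lectin that defines eosinophils, was at or near the floor on all 4 arrays, and Il5ra and Gata1 differed by 0.19 and 0.16. Prss34, a protease of basophils, read 1797 and 3068 in the controls, 834 in the knockout and 8271 after the decoy (-3.31). Mcpt8, a further basophil protease, read 4958 and 5768, then 1717 and 10963 (-2.67), so for both proteases the controls lay between the arrays compared. Cpa3, a carboxypeptidase of mast cells and basophils, read 706 and 1357, then 935 and 3786 (-2.02), with the decoy array alone apart. Of 16 measured genes of this pair of cell types, 5 were 2-fold lower and 14 lay below 0, with a median of -0.61 (-0.33 to -0.46 under the other scalings), and their sum was 15703 and 19904 in the controls, 15313 in the knockout and 43855 after the decoy. Cebpe, a granulocyte transcription factor, stands on both the azurophil and the eosinophil list and differed by -1.94, with its further probes at a median of -0.07. The part of each granulocyte type in these differences was not tested.

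**Figure D3:**
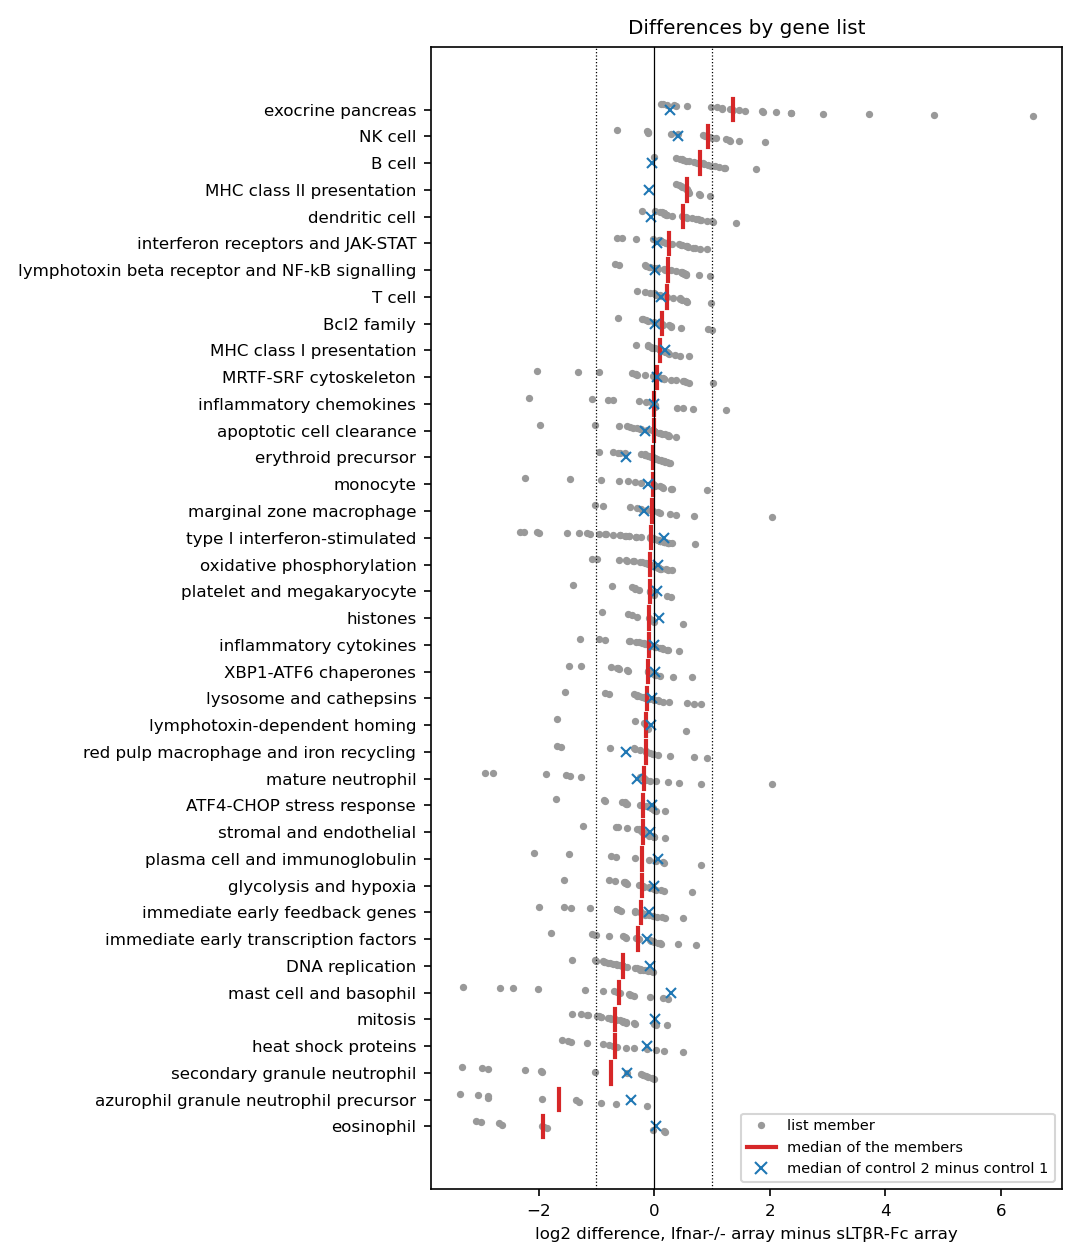
Each row is a gene list, each grey point the log2 difference of 1 measured member, the red mark the list median and the blue cross the median gap between the controls. The lists run from exocrine pancreas at a median of 1.36 to eosinophil at -1.92.

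Immediate early genes, which cells switch on soon after a stimulus, lay on both sides of 0, with more of them below it. Of 20 measured immediate early transcription factors, 14 lay below 0 and 3 were 2-fold lower (median -0.28, and -0.11 with the values as deposited, where 11 lay below 0 and 8 above), and of 21 feedback genes, 17 lay below 0 and 4 were 2-fold lower (median -0.23, and -0.01 with the values as deposited). The list medians against the controls were 0.46 and 0.53 for the Ifnar-/- array and 0.55 and 0.94 for the sLTβR-Fc array. Atf3, a stress-induced factor, read 121 and 113 in the controls, 178 in the knockout and 614 after the decoy (-1.78). Ier2, an early response gene, read 493 and 237, then 435 and 1725 (-1.99), and Ier3, a survival regulator, 1534 and 1255, then 3119 and 8469 (-1.44). Egr1, a zinc finger factor, read 4065 and 3291, then 5434 and 10996 (-1.02). Fosl2, a factor of the AP-1 family, and Dusp2, a phosphatase of MAP kinases, went the other way on their brightest probes, at 0.73 and 0.50. Their further probes differed by -0.10 and 0.15. The decoy array was highest in each of Atf3, Ier2, Ier3 and Egr1, and for Atf3, Ier3 and Egr1 the Ifnar-/- array also lay above both controls.

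Ppp1r15a, which restores protein synthesis after stress, read 564 and 368 in the controls, 791 in the knockout and 2336 after the decoy (-1.56). A window of its promoter (RefSeq, GRCm38.p6, chr7:45526269-45526295, minus strand) is printed because it holds the cAMP response element TGACGTCA, in capitals, a palindrome that reads the same on both strands.
Ppp1r15a: accccgcctctccggTGACGTCAgcac
This element was found in 8 of the 180 2-fold lower genes with a promoter (4.44%), in 0 of the 84 higher ones, in 3 of 17 feedback genes (17.6%) in 3.09% of the 11828 genes compared that had a promoter, and in 2.03% of all promoters. The CArG box, the site of serum response factor, was found in 2 of 17 immediate early transcription factors (11.8%) in 1.75% of the genes compared and in 1.81% of all promoters.

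Inflammatory mediators and stress genes differed in single members. Il6 read 162 and 216 in the controls, 603 in the knockout and 1460 after the decoy (-1.28). Cxcl2, a neutrophil attractant, read 247 and 126, then 134 and 599 (-2.16, further probe -1.15), and Ccl3 read 320.3 and 475, then 854 and 1792 (-1.07). Both arrays lay above both controls for Il6 and Ccl3 but not for Cxcl2. Of 22 measured cytokine genes 1 was 2-fold lower and of 16 chemokine genes 2 were lower and 1 higher, with medians of -0.09 and 0. Over all genes compared, 1.55% were 2-fold lower and 0.706% higher, so counts of 1 or 2 members are not read as a result about a list. Among 14 heat shock genes, 4 were 2-fold lower and the median was -0.68, which was -0.36 with the values as deposited and -0.30 with the median over all probes of each gene. Of those 4, Hspa4l and Dnajb4 had a further probe on the other side of 0, at 0.11 and 0.13. Hspa1a, an inducible chaperone, read 811 and 205 in the controls, 1414 in the knockout and 4248 after the decoy (-1.59), with its further probes at a median of -0.38 and controls more than 2-fold apart. Bag3, its co-chaperone, differed by -1.49. Of the unfolded protein response, Chac1, a glutathione-degrading enzyme, read 195 and 189, then 161 and 522 (-1.70), and Dnajb9, a chaperone of the endoplasmic reticulum, differed by -1.26. The lists of the ATF4-CHOP and XBP1-ATF6 arms had medians of -0.20 and -0.11 (-0.10 and -0.06 with the values as deposited), with 1 of 18 and 2 of 18 members at 2-fold.

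Most proliferation genes read lower on the Ifnar-/- array, and here the sLTβR-Fc array lay near the controls. All 27 measured genes of DNA replication lay below 0, 3 at 2-fold, with a median of -0.55 and a control gap of -0.07. Over all genes compared, 1.55% were 2-fold lower. Against the controls, their median was -0.48 for the Ifnar-/- array and 0.02 for the sLTβR-Fc array. Rrm2, a subunit of ribonucleotide reductase, read 924 and 766 in the controls, 299 in the knockout and 805 after the decoy (-1.43, further probe -1.11). Of 25 mitosis genes, 22 lay below 0 and 4 were 2-fold lower, with a median of -0.68. Plk1, a mitotic kinase, read 1352 and 1158, then 432 and 1155 (-1.42), and Cdc20, which starts the exit from mitosis, 933 and 946, then 477 and 1066 (-1.16). In Rrm2, Plk1 and Cdc20 the Ifnar-/- array alone was low. These medians were smaller under the other scalings, at -0.23 and -0.38 with the values as deposited, where 22 of 27 and 21 of 25 members lay below 0. Under all 4 scalings together, 0 of the mitosis genes and 1 of the DNA replication genes kept a 2-fold difference.

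**Figure D4:**
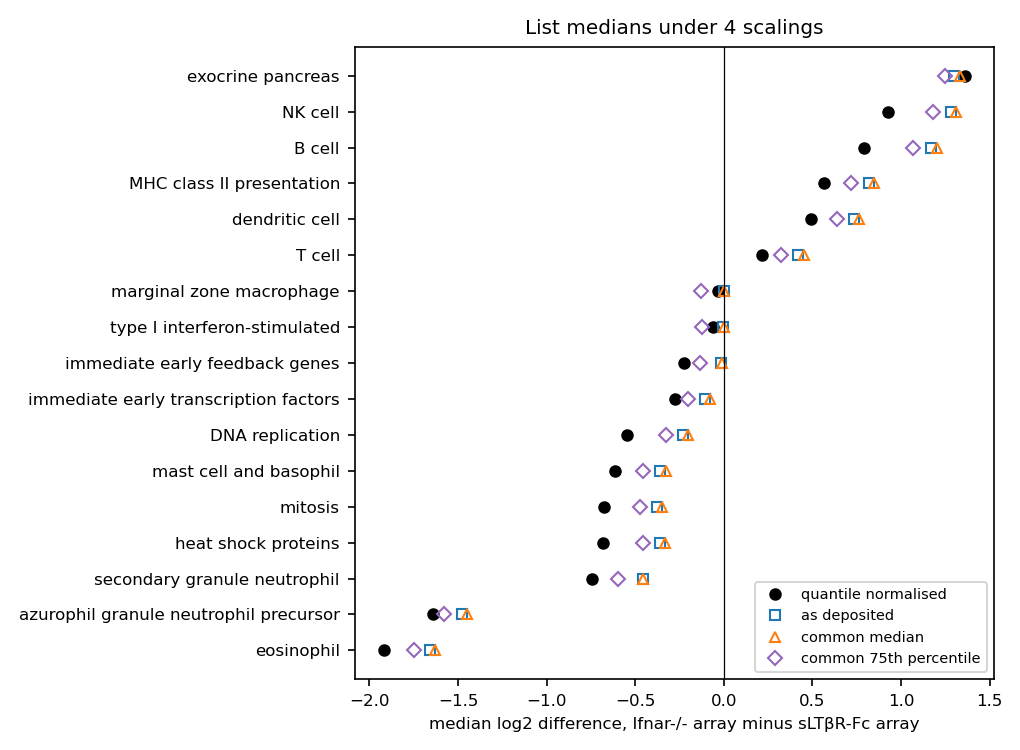
Median log2 difference of 17 gene lists under quantile normalisation, values as deposited, scaling to a common median and scaling to a common 75th percentile. The eosinophil, azurophil, pancreas, natural killer and B cell lists kept their side of 0 under each scaling, and the lists near 0 did not all do so.

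Red pulp macrophage genes had a median of -0.14 over 15 measured members, which was 0.04 with the values as deposited, and the controls differed by -0.50 on this list. Vcam1, an adhesion molecule, read 1344 and 486 in the controls, 235 in the knockout and 756 after the decoy (-1.68), and Slc40a1, the iron exporter ferroportin, 2913 and 1594, then 562 and 1709 (-1.61). For both genes the Ifnar-/- array was lowest and the decoy array lay within the range of the controls. Cytoskeleton genes regulated by MRTF and SRF had a median of 0.05 with 1 of 22 higher and 2 lower at 2-fold, against 0.706% and 1.55% of all genes. Cap1, an actin regulator, read 809 and 761, then 157 and 638 (-2.02), and Myh9, non-muscle myosin, differed by -1.33 but by 0.24 on its further probes. T cell, Bcl2 family, oxidative phosphorylation, lysosome, erythroid, platelet, stromal, plasma cell, histone, glycolysis, monocyte and homing genes had medians between -0.22 and 0.22 after quantile normalisation, each with at most 2 members at 2-fold. With the values as deposited the T cell median was 0.42. The oxidative phosphorylation, lysosome and erythroid medians changed sign with the values as deposited.

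Several of the highest and lowest genes stood on no list, as did 223 of the 332. Raly, an RNA-binding protein, read 744 and 458 in the controls, 1953 in the knockout and 388 after the decoy (2.33). Il4i1, a secreted amino acid oxidase, read 1119 and 1035, then 2539.6 and 934 (1.44), and Apol7c, an apolipoprotein L, 266 and 241, then 933 and 301 (1.63). In these 3 genes the Ifnar-/- array was high against all others. Clec2i, a ligand of natural killer receptors, read 442 and 476, then 858 and 258 (1.74). On the lower side, Anxa3, an annexin of neutrophils, read 1355 and 1062, then 632 and 4394 (-2.80), and Trem3, a myeloid activating receptor, 784 and 495, then 302 and 1940 (-2.68). Ighg1, the IgG1 heavy chain constant region, read 2063 and 1954, then 1262 and 8235 (-2.71). The decoy array stood highest in Anxa3, Trem3 and Ighg1. Further probes agreed in sign in 135 of the 155 2-fold genes that had any above background, and in sign and at least 50% of the size in 49. Probe-dependent genes with large differences were Amy2a5, Ltf and Oas1g, given above, and Hp, Cldn15 and Tnfsfm13, whose brightest probes differed by -2.88, -2.59 and -2.29 and whose further probes differed by -0.23, -0.31 and -0.01.

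**Figure D5:**
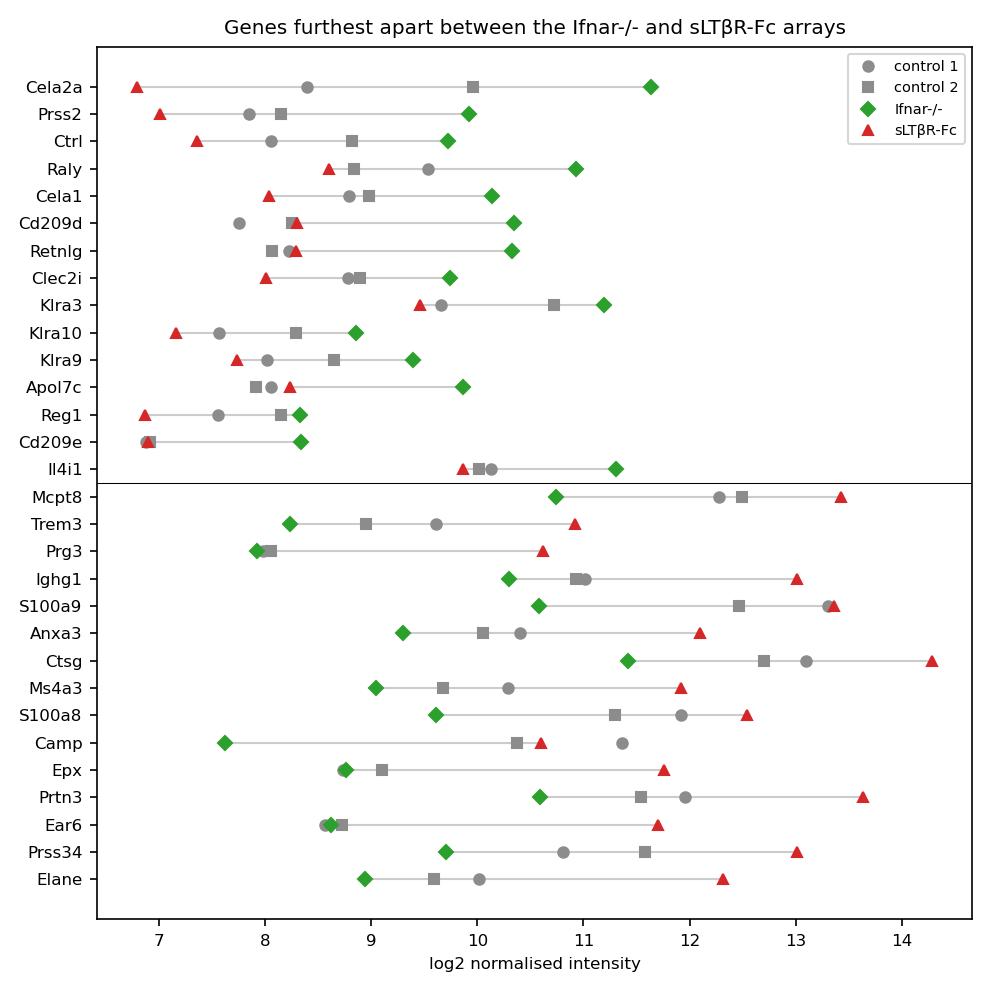
Log2 normalised intensity (horizontal axis) on the 4 arrays for the 15 highest and 15 lowest genes above background on both arrays compared, probe-dependent genes left out, ordered by difference. Of these 30 genes, 27 had no further probe above background and 3 had one that agreed. Genes were selected only if the Ifnar-/- and sLTβR-Fc points lay further apart than the control points, so this holds in each gene by the rule. The differences run from Cela2a at 4.84 to Elane at -3.37.

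A limma fit over the 10798 genes above background on all 4 arrays called 714 genes higher (6.61%) and 979 lower (9.07%) at a Benjamini-Hochberg adjusted p under 0.05. Its spread came from the control pair alone, with 1 residual degree of freedom, and took the lone arrays to vary as the controls do, which could not be checked. With all 14735 genes, limma called 0 in either direction, with 3135 genes at an unadjusted p under 0.05, so these calls are second to the sizes given above.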

How the data were processed

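Cells were sorted from spleen, RNA was labelled as biotin-cRNA, and 4 Illumina single-colour arrays were read. The intensities deposited by the authors are linear values per probe, and the submitters' processing notes name GenomeStudio 2011.1; for background subtraction and scaling the method is not given. Groups came from the labels. Genes were named through GEO's platform table (34885 probes with 1 symbol, 18 with several, 10378 with none), and 18992 of 19057 symbols were found in the RefSeq gene table.

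Values were quantile normalised, raised to a floor of 111 and converted to log2, a scale that understates differences of dim genes. Background limits per array (113 and 115 in the controls, 106 in the knockout and 108 after the decoy) were the 95% point of noise mirrored about the most frequent intensity. A gene was represented by its brightest probe over the 4 arrays and kept if above background on at least 1. A bound ("at least") sets the bright array against the dimmest signal that passed as above background. limma 3.58.1 in R 4.3.3 was run as a second description. The fit was tried on simulated data in which all 4 arrays had the spread of the control pair. That simulation cannot check whether the lone arrays vary as the controls do. Nothing says whether the control arrays hold separate mice, so their gap may be technical, and the number of arrays limits the precision.

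Named genes were the 15 highest and 15 lowest among genes above background on both arrays and further apart than the controls (a further probe, which 3 of the 30 had, needed the same sign and at least 50% of the size), the 4 members of each list furthest from 0, the gate, receptor and ligand genes, and up to 6 probe-dependent genes; others are marked or were named as part of a group. The comparison and the lists were chosen with earlier results of these data known. Alternatives covered scaling, floor, background correction, the filter, the probe rule, each control array left out and the variance model.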

Additional observations from a re-analysis of the deposited data

Results flagged for a closer look

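Of 10396 probes without exactly 1 gene symbol, which entered no comparison, 5060 were above background on the Ifnar-/- or the sLTβR-Fc array and 80 were at least 2-fold apart between them. Among genes with a symbol, by their brightest probes, 332 of 14735 (2.25%) were 2-fold apart. Of the unnamed probes, 32 read at least 2-fold above both control arrays on the Ifnar-/- or the sLTβR-Fc array. No such count was made for genes with a symbol, so the 32 cannot be called many or few.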

How the results depend on the processing

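No paired analysis was possible because the arrays compared are 1 per group. The genes 2-fold higher numbered 104 and became 334 with the values as deposited, 381 with a common median, 230 with a common 75th percentile, 159 with normexp and 68 with the median over all probes of a gene. The 228 lower genes became 120, 109 and 147 under those 3 scalings. The share of higher genes among 2-fold genes was 31.3% after quantile normalisation and 73.6%, 77.8% and 61% under those scalings. The 31 genes 2-fold apart between the controls became 48 with the values as deposited, 50 with a common median and 18 with the median over probes. Leaving out a control array gave between 104 and 106 higher and between 220 and 227 lower genes. limma's 714 higher and 979 lower calls became 264 and 98 with a common median, 223 and 269 with the floor doubled, 43 and 127 without a variance trend, and 0 and 0 with a common 75th percentile (2579 at an unadjusted p under 0.05), with the median over probes (2042) and with all genes kept (3135). With the values as deposited they became 571 higher and 165 lower, so more calls were then higher than lower. The cause of these changes was not tested. Of 94 named 2-fold genes, all 94 kept their sign and 76 their 2-fold size under the 4 scalings. Under all 11 alternatives, 59 of the 94 stayed at 2-fold, and a further 15 fell under it only with the median over all probes. Hspa4l and Dnajb4 reversed with the median over all probes, to 0.11 and 0.13 from -1.43 and -1.16. Dim probes near background, Cd209b and Ltbr among them, have little room to show a difference.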

Other observations

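Genes of core histones were examined as families after their values had been seen. Of 16 measured H2ac genes, which encode replication-dependent histone H2A, all 16 lay below 0 and 9 were at least 2-fold lower in the knockout than after the decoy, with a median of -1.06 (-0.91 with the values as deposited, where 6 were 2-fold lower). H2ac24 read 14659 and 12397 in the controls, 9170 in the knockout and 21305 after the decoy (-1.22), and H2ac21 read 506 and 352, then 319.9 and 959 (-1.58). For H2ac24 and H2ac21 the decoy array lay above both controls and the Ifnar-/- array below both. These genes are near-identical copies, so their probes may share targets and do not count as separate measurements. Of 12 measured H2bc genes, which encode histone H2B, 0 were 2-fold apart, 11 lay below 0 and the median was -0.29.

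The Ly49 receptors of natural killer cells form another family. Of 11 measured Klra genes, 7 were 2-fold higher on the Ifnar-/- array and 10 lay above 0, with a median of 1.12 and a median gap of 0.73 between the controls. Klra8, Klra4 and Klra7 differed by 1.91, 1.46 and 1.03 on their brightest probes. Their further probes differed by only -0.02, 0.20 and 0.20. For Klra3 and Klra16 the further probes differed by 1.79 and 0.81, and Klra10 and Klra9 had none above background. The Klra genes too are close relatives whose probes may share targets.

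Chromosome 16, which carries Ifnar1, had 8 of 467 genes at 2-fold (1.71%, against 2.25% of all genes). Of the 30 measured genes nearest to Ifnar1, 0 were 2-fold apart, and Ifngr2, a chain of the interferon γ receptor, read 11801 and 10056 in the controls, 6416 in the knockout and 9386 after the decoy (-0.55).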
